A study of Bos taurus with 43 samples.

Results

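ENSBTAG00000037644, ENSBTAG00000043250 and ENSBTAG00000054661 are 3 bovine genes whose reads were less abundant in the luminal endometrium of cows from the second of 2 rounds of estrus synchronization. They were chosen by the difference between rounds in these same libraries: of 27570 Ensembl identifiers counted, 15206 were tested, 10 passed as lower in the second round, and these 3 had the smallest p-values among those 10. All 3 listed identifiers were found, and all 3 passed the low-count filter. The difference between rounds is therefore given as a description, and tests were made for pregnancy outcome, progesterone and library measures, which were not used in the choice.

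The samples came from 43 multiparous Angus x Brahman cows. A cytology brush collected cells from the uterine lumen on day 4 after the second GnRH dose, a single embryo made in vitro was transferred to each on day 7, and pregnancy was scored around day 30. Block 2 (the second round) held 14 cows that became pregnant and 8 that did not, and block 1 held 11 and 10. All cows had received the same progesterone device, GnRH and PGF2alpha schedule and had shown estrus, and each library is 1 cow. The round of synchronization, and whatever differed between rounds in handling or sequencing, cannot be told apart. The labels give no sequencing or extraction batch.

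The luminal epithelium is the first maternal surface met by the embryo. After ovulation the corpus luteum releases progesterone, which acts through its receptor to turn the endometrium from the proliferative state of estrus to a secretory one, and the bovine conceptus depends on those secretions for a long time before it attaches. A brush takes mainly surface cells, with variable amounts of immune and underlying cells. The files give no symbol for any identifier, and the RefSeq gene table used here lists no Ensembl identifiers, so the genes are described by their values, with no name, position or function, and the labelled tissue was not checked against marker genes. In a bulk sample, fewer cells of a type and less RNA per cell cannot be told apart.

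Libraries held 11159501 to 23572549 counts. Detected genes averaged 18273 ± 335 in block 2 and 18010 ± 531 in block 1 (SD, n = 22 and 21). Total counts had medians of 15819963 in block 2 and 15056428 in block 1. The 10 most abundant genes, leaving out these genes and ENSBTAG00000051364, took a median of 5.36% of counts in block 2 and 5.43% in block 1.

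ENSBTAG00000037644 was close to absent in most cows and abundant in a few. Values are CPM, the reads of a gene scaled to a common library size after TMM normalization. It ranged from 0 to 2.42 CPM in the 14 block 2 pregnant cows, with a median of 0.194 CPM. In the 8 block 2 nonpregnant cows it ranged from 0 to 1.06 CPM, with a median of 0.222 CPM. In block 1 the spread was far wider. The 11 pregnant cows ran from 0 to 1775 CPM with a median of 0.298 CPM, and the 10 nonpregnant cows ran from 0 to 257 CPM with a median of 0.975 CPM. The groups thus overlapped at the bottom and differed at the top.

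Reads of ENSBTAG00000037644 numbered at most 32 in any block 2 library, against as many as 25805 in block 1. No read was seen in 3 of 22 block 2 cows and in 5 of 21 block 1 cows. A count of 0 allows up to 3 counts, which is 0.140 to 0.275 CPM at these depths, and this limit covers counting error only. At most 3 reads were seen in 11 cows of block 2 and in 7 of block 1. Low or undetected levels were therefore common in both rounds.

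The high values of ENSBTAG00000037644 were carried by 6 cows, all of block 1. None of the 22 block 2 cows and 6 of 21 block 1 cows exceeded 10 CPM. The highest was block 1 pregnant replicate 3 at 1775 CPM, which made the gene the one with rank 27 by read count in that library. Then followed block 1 nonpregnant replicate 3 at 257 CPM, block 1 pregnant replicate 10 at 212 CPM and block 1 nonpregnant replicate 9 at 142 CPM. Block 1 nonpregnant replicates 1 and 2 had 31.1 and 14.1 CPM. The single highest cow held 72.7% of the CPM summed over block 1, and the 6 cows together held 99.6%.

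A lower limit for a high value gave the same order. Over 4 times the median of all 43 cows (1.19 CPM for this gene), 1 block 2 cow and 9 block 1 cows stood out. At 8 times the median the counts were 1 and 7. At 2 times the median, with a minimum of 1 CPM, they were 4 and 10. The fitted log2 difference of block 2 minus block 1 was -7.93 ± 1.22 (SE), and it was -6.02 without block 1 pregnant replicate 3. Limma voom, which works on log values, gave -3.18, which did not pass the threshold (adjusted p = 0.309).

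Among the 15206 genes, ENSBTAG00000037644 had the third largest spread within block and outcome groups. Its SD on the log2 CPM scale was 3.22, against a median of 0.45 over all genes tested. Within block 2 its SD was 1.29 and within block 1 it was 4.43.

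ENSBTAG00000043250 was detected in every library. It ranged from 6.42 to 34.1 CPM in block 2 pregnant cows (median 19.5 CPM). In block 2 nonpregnant cows it ranged from 20.9 to 87.9 CPM (median 31.3 CPM). Block 1 pregnant cows ran from 25.4 to 161 CPM (median 54.2 CPM). Block 1 nonpregnant cows ran from 19.1 to 131 CPM (median 44.2 CPM). The block 2 pregnant cows were the lowest group: 10 of the 14 lay below all block 1 pregnant cows, and 10 of the 11 block 1 pregnant cows lay above all block 2 pregnant cows. In nonpregnant cows the rounds overlapped over most of their range, and 2 of the 10 block 1 cows lay above all of block 2.

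The fitted log2 difference of ENSBTAG00000043250, block 2 minus block 1, was -1.21 ± 0.25 (SE), which is 0.432 times the block 1 level. It was -1.67 in pregnant and -0.58 in nonpregnant cows. Over 4 times the median (120 CPM), 0 block 2 cows and 2 block 1 cows stood out, and over 2 times the median the counts were 2 and 8. The read counts behind these values ran from 118 to 2668.

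ENSBTAG00000054661 was among the most counted genes of these libraries. It ranged from 219 to 2446 CPM in block 2 pregnant cows (median 1126 CPM) and from 1258 to 5796 CPM in block 2 nonpregnant cows (median 1573 CPM). Block 1 pregnant cows ran from 1831 to 6483 CPM (median 3525 CPM), and block 1 nonpregnant cows ran from 997 to 6067 CPM (median 3295 CPM). By read count, not adjusted for transcript length, it held rank 3 to 703 in block 2 libraries and rank 1 to 51 in block 1 libraries. Of the 14 block 2 pregnant cows, 12 lay below all block 1 pregnant cows. Of the block 1 cows, 9 of 11 pregnant and 1 of 10 nonpregnant lay above all block 2 cows of the same outcome. The nonpregnant count depends on the highest block 2 nonpregnant cow, at 5796 CPM. The block 2 median was 0.319 times the block 1 median in pregnant cows and 0.477 times in nonpregnant cows.

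In block 2, the nonpregnant replicates 6 and 1 stood apart from the rest for ENSBTAG00000054661, at 5796 and 4126 CPM, and both also had the highest ENSBTAG00000043250 of that round, at 62.8 and 87.9 CPM. The lowest cow was block 2 pregnant replicate 10 at 219 CPM. The fitted log2 difference of block 2 minus block 1 was -1.16 ± 0.24 (SE), or 0.446 times the block 1 level, with -1.65 in pregnant and -0.48 in nonpregnant cows. No cow exceeded 4 times the median of 2070 CPM, and over 2 times the median there were 1 block 2 cow and 5 block 1 cows.

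**Figure D1:**
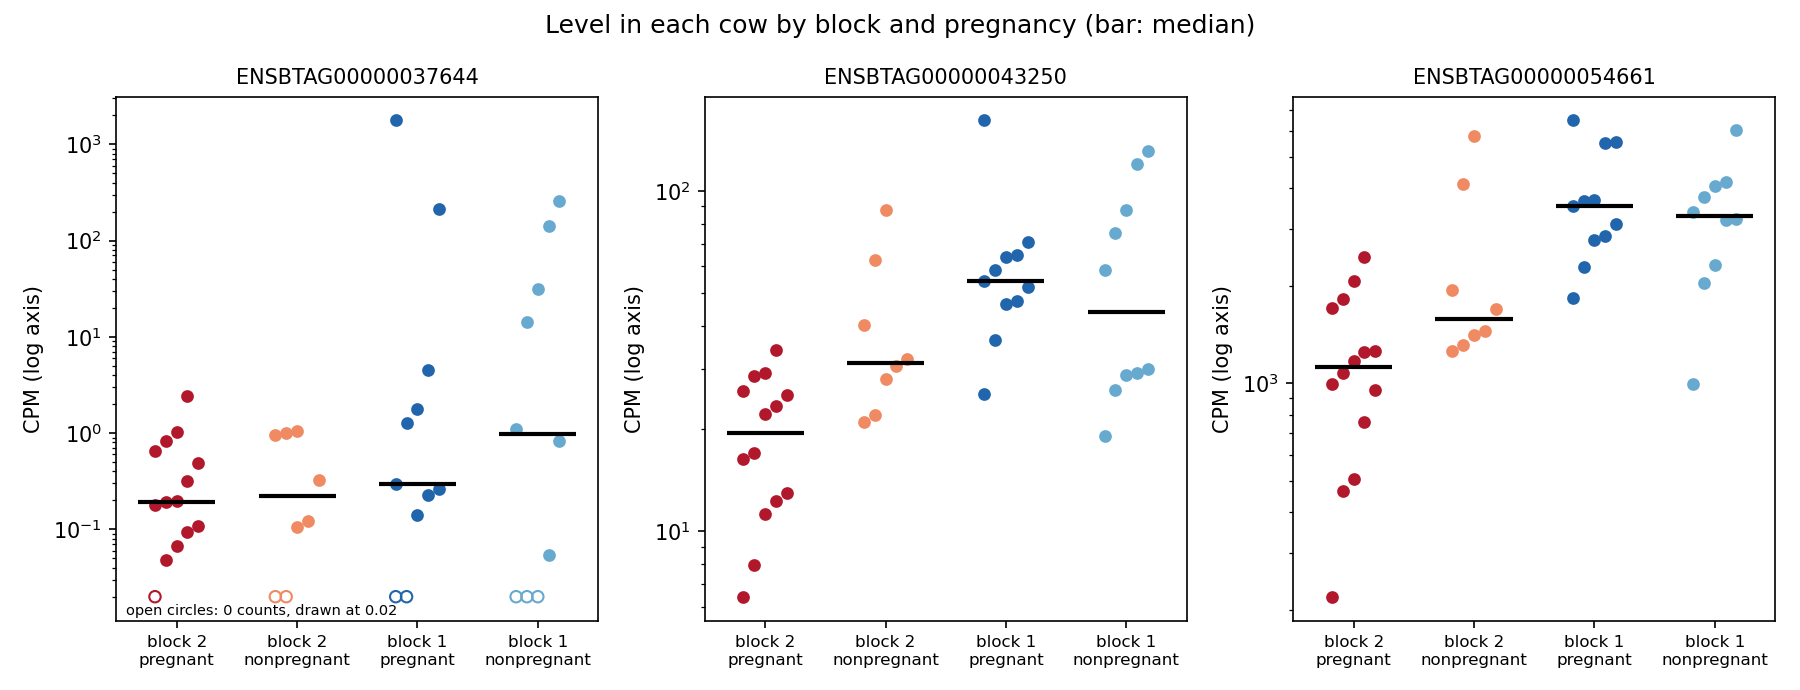
CPM of each gene (log axis) in each of the 43 cows by block and pregnancy, with bars at the group medians and open circles for libraries with 0 counts. ENSBTAG00000037644 reaches 1775 CPM in block 1 and at most 2.42 CPM in block 2, while the other genes are lowest in block 2 pregnant cows (medians 19.5 and 1126 CPM). In nonpregnant cows the ranges of these 2 genes overlap between blocks, with block 2 medians at 0.709 and 0.477 times those of block 1.

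Around the threshold that chose the genes, the differences were smaller than theirs. The 10 genes lower in block 2 are 0.0658% of those tested, a share the choice itself rests on. The 7 that were not chosen had log2 differences from -1.15 to -0.23, and the 3 nearest genes outside had -0.25, -0.40 and -0.36. Among those 7, ENSBTAG00000051364 (-1.15) was nearest in size to ENSBTAG00000054661.

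Whether the genes also differed between cows that later did or did not become pregnant was tested with block in the model. None of the 3 genes passed, and neither did any of the 15206 (0% called; 455 genes, or 2.99%, had an unadjusted p under 0.05). ENSBTAG00000043250 had a median of 28.7 CPM in the 25 pregnant cows and 31.3 CPM in the 18 nonpregnant cows. Its log2 difference was -0.52 ± 0.25 (SE; 95% interval -1.01 to -0.02; unadjusted p = 0.0404, edgeR adjusted p = 1.00). It was -0.32 in limma voom and -0.39 with log2 progesterone added (unadjusted p = 0.211 and 0.136). Progesterone itself had a median of 0.86 in pregnant and 0.51 in nonpregnant cows, and of 0.91 and 0.525 in those of block 2. ENSBTAG00000054661 had medians of 1831 CPM where pregnancy followed and 2758 CPM where it did not, with a log2 difference of -0.42 ± 0.24 (SE; 95% interval -0.90 to 0.06; edgeR adjusted p = 1.00). It was -0.23 without block 2 nonpregnant replicate 6. The medians of both genes pool the rounds and, unlike the log2 differences, are not adjusted for block. Block 2 held 14 of the 25 pregnant and 8 of the 18 nonpregnant cows. For both genes the pregnant median was the lower within block 2 and the higher within block 1.

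The estimate for ENSBTAG00000037644 rested on 1 cow. Its log2 difference was 1.49 ± 1.10 (SE; 95% interval -0.73 to 3.71; edgeR adjusted p = 1.00), and without block 1 pregnant replicate 3 it was -0.62. The medians, which pool both rounds, were 0.265 CPM in the 25 pregnant and 0.580 CPM in the 18 nonpregnant cows. The pregnant median lies within the 0.140 to 0.275 CPM that a count of 0 allows, so no direction is read from them. In block 1, 2 of 11 pregnant cows and 4 of 10 nonpregnant cows exceeded 10 CPM, and Fisher's exact test did not separate them (two-sided p = 0.361).

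For ENSBTAG00000043250 and ENSBTAG00000054661 the outcome values diverged by round. In block 2, ENSBTAG00000043250 averaged 4.14 ± 0.73 log2 CPM in pregnant and 5.17 ± 0.72 in nonpregnant cows (SD, n = 14 and 8; exact two-sided permutation p = 0.00381, unadjusted). In block 1 it averaged 5.80 ± 0.66 in pregnant and 5.61 ± 1.01 in nonpregnant cows (SD, n = 11 and 10; exact permutation p = 0.604). Of the 14 pregnant cows of block 2, 7 lay below every nonpregnant cow of that round. Without the nonpregnant replicates 6 and 1 together, left out after seeing their high values, the block 2 log2 difference was -0.69 (exact permutation p = 0.0420). It was -1.04 with them.

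ENSBTAG00000054661 showed the same layout. In block 2 it averaged 9.98 ± 0.94 log2 CPM in pregnant and 10.97 ± 0.83 in nonpregnant cows (SD, n = 14 and 8; exact permutation p = 0.0205, unadjusted), and 10 of 14 pregnant cows lay below every nonpregnant cow. That p depends on the nonpregnant replicates 6 and 1, the 2 highest of their group. They were left out after seeing their values, which by itself lowers the difference and the number of cows. The log2 difference was -0.77 without replicate 6 (exact permutation p = 0.0618), -0.84 without replicate 1 (exact permutation p = 0.0541) and -0.56 without both (exact permutation p = 0.172). In block 1 it averaged 11.77 ± 0.56 in pregnant and 11.56 ± 0.71 in nonpregnant cows (SD, n = 11 and 10; exact permutation p = 0.463). ENSBTAG00000037644 gave p = 0.913 in block 2 and p = 0.858 in block 1 by the same exact permutation test. These are 6 tests of single genes, and in the edgeR fit of block 2 alone over all genes the adjusted p was 1.00 for each of the 3.

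The difference between rounds in the outcome effect was tested directly. Its log2 value was -1.09 ± 0.47 for ENSBTAG00000043250 (SE; unadjusted p = 0.0251) and -1.17 ± 0.45 for ENSBTAG00000054661 (SE; unadjusted p = 0.0135). For ENSBTAG00000037644 it was -1.97 ± 2.35 (SE; unadjusted p = 0.405). None passed over all genes (edgeR adjusted p = 0.999 for each; 0% of genes called, 3.33% with an unadjusted p under 0.05). The block 2 minus block 1 log2 difference of ENSBTAG00000037644 was -8.63 in pregnant and -6.65 in nonpregnant cows. The pregnant value includes block 1 pregnant replicate 3, at 1775 CPM. By medians, block 2 was at 0.651 times block 1 in pregnant and 0.228 times in nonpregnant cows. The block 2 medians of 0.194 and 0.222 CPM lie within the 0.140 to 0.275 CPM that a count of 0 allows. No order of the 2 ratios is therefore read from them.

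**Figure D2:**
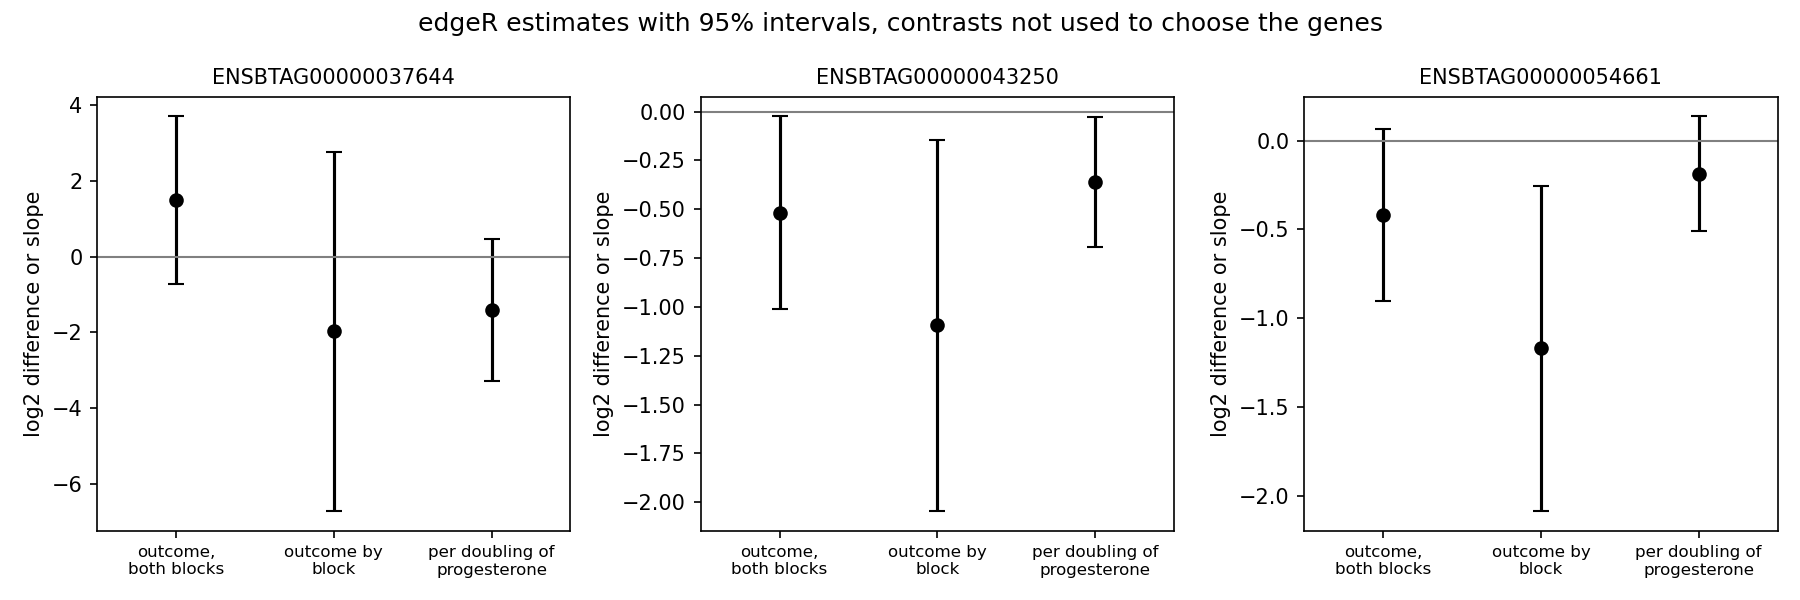
Log2 estimates with 95% intervals from edgeR fits over 43 cows: pregnant minus nonpregnant, the difference of that effect between blocks (block 2 minus block 1), and the slope per doubling of progesterone. No estimate passed the adjusted threshold, and the panels have different scales, the interval of ENSBTAG00000037644 being the widest (-0.73 to 3.71 for outcome).

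Blood progesterone on the day of sampling ran from 0.27 to 1.88, in a unit the labels do not state, with medians of 0.785 in block 2 and 0.69 in block 1. All 3 genes had negative slopes on log2 progesterone, with block in the model, and none passed, where 0.513% of all genes did (78 genes). An unadjusted p under 0.05 was far more common, in 2492 genes or 16.4% of those tested. ENSBTAG00000043250 changed by -0.36 ± 0.17 per doubling (SE; 95% interval -0.69 to -0.03; unadjusted p = 0.0351, edgeR adjusted p = 0.264). ENSBTAG00000054661 had a slope of -0.19 ± 0.16 (SE; edgeR adjusted p = 0.588). ENSBTAG00000037644 had a slope of -1.41 ± 0.93 (SE; edgeR adjusted p = 0.460), which was -0.62 without block 1 pregnant replicate 3 and -2.78 without block 1 nonpregnant replicate 9.

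Within rounds the slope of ENSBTAG00000043250 was -0.66 in block 2 and -0.18 in block 1 (edgeR adjusted p = 0.138 and 0.991), and that of ENSBTAG00000054661 was -0.44 and -0.05 (edgeR adjusted p = 0.403 and 0.994). The difference between those slopes was not tested. The 6 cows with over 10 CPM of ENSBTAG00000037644 had progesterone values of 0.57, 0.37, 0.69, 1.46, 0.48 and 0.51, from the highest CPM down. The value of 1.46 was that of block 1 nonpregnant replicate 9. All 6 lay within the block 1 range of 0.27 to 1.81 (median 0.69), and they were not tested against the other block 1 cows.

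**Figure D3:**
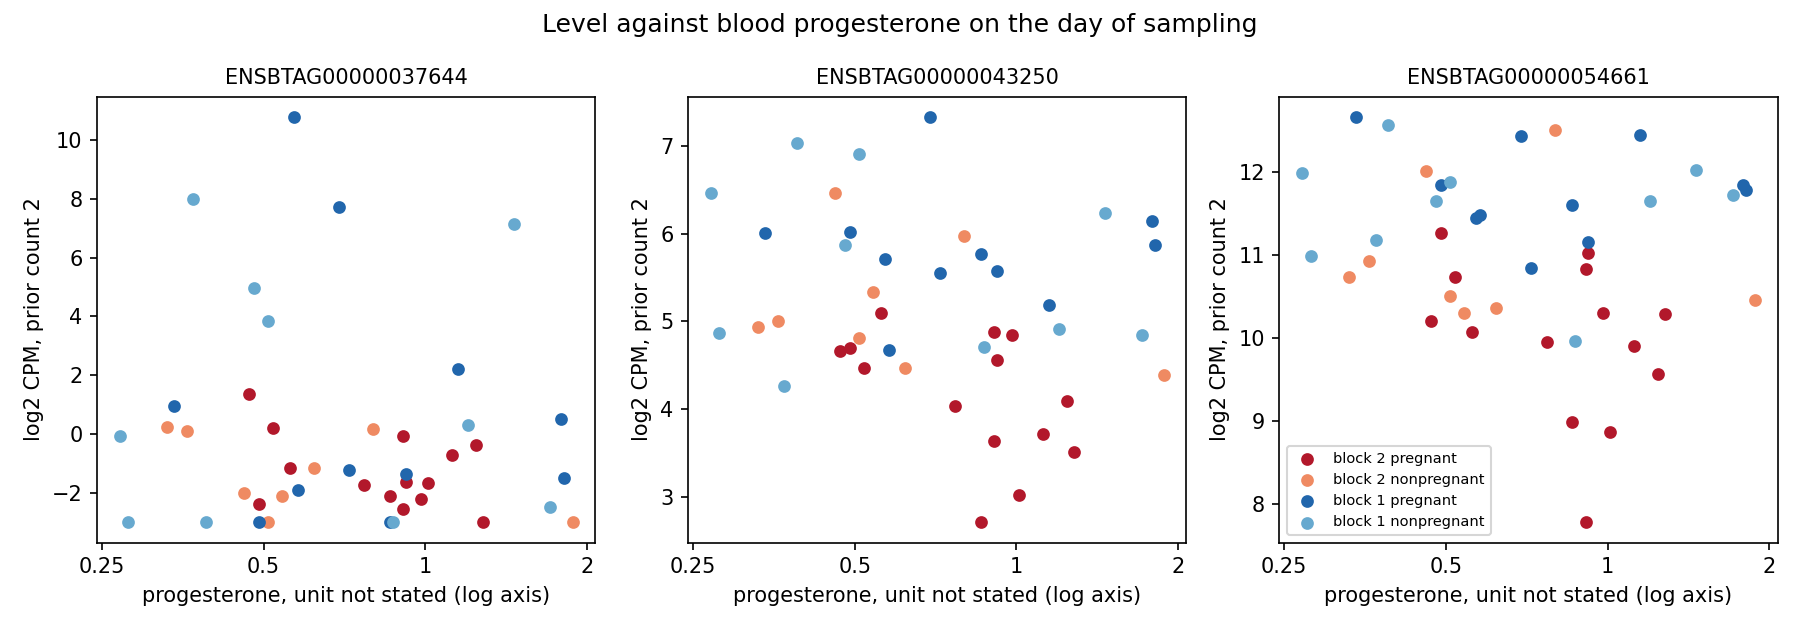
Log2 CPM (prior count 2) of each gene against blood progesterone (log axis, unit not stated in the labels), 1 point per cow, coloured by block and pregnancy. Fitted slopes per doubling were -1.41 ± 0.93, -0.36 ± 0.17 and -0.19 ± 0.16 (SE) for ENSBTAG00000037644, ENSBTAG00000043250 and ENSBTAG00000054661, and none passed the adjusted threshold. The 6 highest cows of ENSBTAG00000037644 lie between 0.37 and 1.46.

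Because block 2 libraries had more detected genes, the genes were also fitted on library measures. These slopes were added after seeing the data. None of the 3 followed the number of detected genes past the threshold, where 28.1% of all genes did. The slopes per SD of detected genes were 0.23 ± 0.59 for ENSBTAG00000037644, 0.18 ± 0.13 for ENSBTAG00000043250 and -0.08 ± 0.12 for ENSBTAG00000054661 (SE; edgeR adjusted p = 0.789, 0.305 and 0.657). On the share of the 10 most abundant other genes, with 19.8% of genes called, the slopes were -0.69 ± 0.58, 0.21 ± 0.11 and 0.18 ± 0.11 in the same order (SE; edgeR adjusted p = 0.422, 0.167 and 0.254). With detected genes in the model, the log2 differences of block 2 minus block 1 were -8.07, -1.25 and -1.11. The last, -1.16 without that term, no longer met the threshold that chose it (edgeR adjusted p = 0.0742). Over all genes, 6 were called for block in that fit, against 63 in the main fit. With the share of abundant genes in the model the differences of the 3 genes were -7.69, -1.30 and -1.23.

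ENSBTAG00000043250 and ENSBTAG00000054661 varied together from cow to cow beyond their common difference between rounds. After the mean of each block and outcome group was subtracted, their log2 CPM had a Pearson r of 0.66 and a Spearman rho of 0.73 over 43 cows, and r was 0.64 without the 2 cows farthest from the median. Within groups r was 0.68 in block 2 pregnant, 0.84 in block 2 nonpregnant, 0.42 in block 1 pregnant and 0.73 in block 1 nonpregnant cows. Over 43 cows ENSBTAG00000037644, with at most 3 reads in 18 of them, had lower r to both. These were 0.20 to ENSBTAG00000043250 (rho 0.30) and 0.19 to ENSBTAG00000054661 (rho 0.28). Within groups they ran from 0.06 to 0.41 and from 0.18 to 0.40. In block 1 pregnant cows its r of 0.41 to ENSBTAG00000043250 was close to the 0.42 of the other pair. All are descriptions over cows whose 2 values share a library.

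The cows that carried ENSBTAG00000037644 ranked high, middle and low for the others. Of its 2 highest cows, block 1 pregnant replicate 3 ranked 12 of the 21 block 1 cows for ENSBTAG00000043250 and 16 for ENSBTAG00000054661. For the same genes block 1 nonpregnant replicate 3 ranked 21 and 17. Block 1 pregnant replicate 10 ranked 1 and 4. Over 4 times the median, 1 cow was high for both ENSBTAG00000037644 and ENSBTAG00000043250, and none for any other pair.

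**Figure D4:**
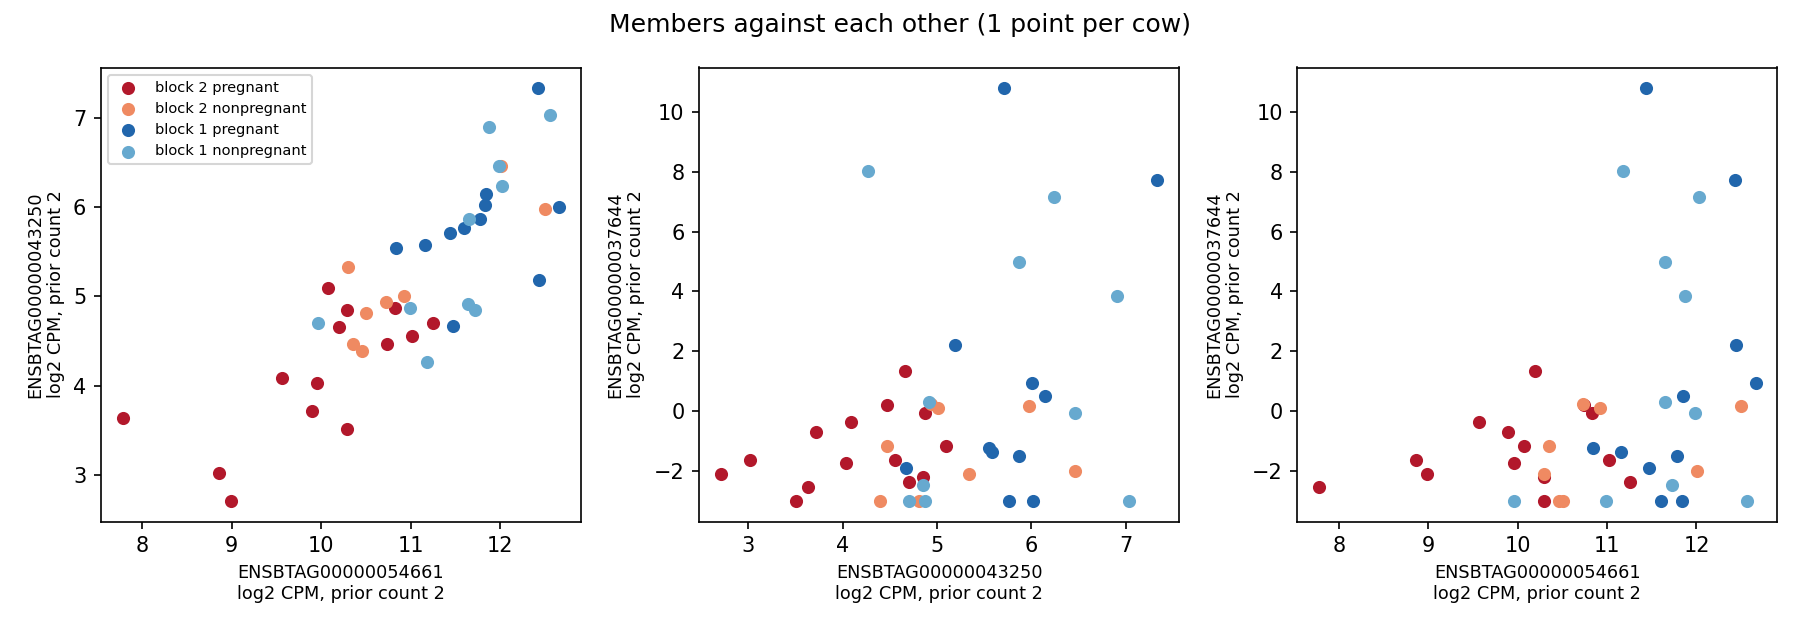
Log2 CPM (prior count 2) of the genes against each other, 1 point per cow, coloured by block and pregnancy. After removal of group means, r of ENSBTAG00000043250 and ENSBTAG00000054661 was 0.66 over all cows. Within colours it ran from 0.42 (block 1 pregnant) to 0.84 (block 2 nonpregnant). The high cows of ENSBTAG00000037644 are spread over much of the block 1 range of the others. Its r to them was 0.20 and 0.19 over all cows and ran from 0.06 to 0.41 within colours.

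The genes most like each one were ranked by the Pearson r of log2 CPM after removal of group means, over 43 cows, among the genes with a mean log2 CPM of at least 0. ENSBTAG00000054661 had a close partner, ENSBTAG00000051364, with r of 0.94 and rho of 0.95. That partner had medians of 343 CPM in block 2 pregnant, 507 CPM in block 2 nonpregnant, 1089 CPM in block 1 pregnant and 1078 CPM in block 1 nonpregnant cows. The next was ENSBTAG00000049993, at r of 0.67. No gene had an r between 0.94 and 0.67 with ENSBTAG00000054661.

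The ratio of ENSBTAG00000054661 to ENSBTAG00000051364 had a median of 3.16 in block 2 and 3.09 in block 1, and ran from 2.01 to 5.54 over all cows. On the log2 scale the SD of the ratio was 0.30, while each gene alone had an SD of 1.07 (ENSBTAG00000054661) and 1.18 (ENSBTAG00000051364). No source used here gives the counting settings for strand or for reads shared between genes, so whether these counts come from overlapping or near-identical transcripts is uncertain.

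For ENSBTAG00000043250 the nearest genes were ENSBTAG00000044427 (r = 0.71, rho = 0.82) and ENSBTAG00000051364 (r = 0.66, rho = 0.71). ENSBTAG00000044427 is a gene of low counts, with medians of 2.26 CPM in block 2 and 5.03 CPM in block 1. Its r to ENSBTAG00000043250 was 0.62 in block 2 and 0.88 in block 1. Of 14323 genes compared, 103 had r above 0.5 with ENSBTAG00000043250 and 32 with ENSBTAG00000054661. Leaving out the members themselves, 5 genes were shared, which is 4.90% of the first list and 16.1% of the second.

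ENSBTAG00000037644 had few genes like it. ENSBTAG00000022449 came first (r = 0.67, rho = 0.65) and ENSBTAG00000048049 second (r = 0.54, rho = 0.43), and these 2 were the only ones of 14324 above 0.5. Without its highest cow the values were 0.64 and 0.50. Without the 2 cows farthest from the median they were 0.62 and 0.41, the second being below 0.5. ENSBTAG00000048049 had low counts, with a median of 0.833 CPM over 43 cows and as few as 2 reads. ENSBTAG00000022449 had medians of 4.11 CPM in block 2 and 4.53 CPM in block 1, a log2 difference between rounds of -0.19 (edgeR adjusted p = 0.771). Its r was 0.50 in block 2, where ENSBTAG00000037644 itself had at most 32 reads, and 0.73 in block 1.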

How the data were processed

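The authors deposited 1 table per cow with raw read counts for 27570 Ensembl identifiers, as whole numbers in the deposited files. Libraries were made by poly-A capture and run on a NovaSeq, per the labels' protocols. HISAT2, HTSeq and the ARS-UCD1.2 build, with Trim Galore 0.4.4 and FastQC 0.11.7, are listed in the submitters' processing notes. HTSeq's settings for strand and overlap, like the annotation version, are not given in sources used here.

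Genes were filtered with filterByExpr (minimum count 10, smallest group 18), scaled by TMM and tested by quasi-likelihood in edgeR 4.0.16 with robust fits (Benjamini-Hochberg over 15206 genes, threshold 0.05). Models held block with pregnancy, block with log2 progesterone, or block by pregnancy. The SE is the absolute log2 value divided by the square root of F. Single genes were tested within a block over all 319770 or 352716 arrangements of the pregnancy labels. Log2 CPM used a prior count of 2. Alternatives used DESeq2 1.42.0, limma 3.58.1 voom, RLE factors, no filter, covariates and leaving out each cow. Scripts were tested on simulated data. Each cow is 1 independent sample.

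The rule for named genes was the listed members, the genes nearest the threshold and, without symbols, at most 2 co-varying identifiers per member. Members, lists and thresholds were chosen with earlier results of these data known. The marker lists fixed for cell types could not be used without symbols. ENSBTAG00000051364 was left out of the share of abundant genes after its values were seen.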

Additional observations from a re-analysis of the deposited data

How the results depend on the processing

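No paired analysis was possible because no cow gave more than 1 sample and the replicate numbers are only names. None of the 3 genes passed the adjusted threshold for outcome, progesterone or the outcome by block interaction under any edgeR, DESeq2 or limma voom alternative run. The same held for outcome and progesterone without any 1 cow, and the interaction was not refitted in that way. All progesterone slopes kept their sign. For outcome, ENSBTAG00000037644 turned to -0.58 in DESeq2, -0.66 in limma voom and -0.35 in log2 CPM means of block 1. ENSBTAG00000043250 turned to 0.034 in block 1 alone (0.19 in log2 CPM means) and ENSBTAG00000054661 to 0.18 (0.21). Exact permutation in block 2 put both past an unadjusted 0.05, at -1.04 and -0.99. Without 1 block 2 cow, added after seeing the data, these log2 CPM differences ran from -0.17 to 0.29, -1.15 to -0.85 and -1.09 to -0.77 for ENSBTAG00000037644, ENSBTAG00000043250 and ENSBTAG00000054661. The last missed 0.05 without block 2 nonpregnant replicate 6 or 1, and was -0.56 without both. The interaction of ENSBTAG00000037644 turned to 0.0066 in DESeq2 and 0.80 in limma voom, and its block difference moved to -3.18 in limma voom (adjusted p = 0.309). For block, no gene of any kind passed in nonpregnant cows alone (8 of block 2, 10 of block 1). In pregnant cows alone (14 and 11) 248 did. These fits differ in size, and the direct test of outcome by block called 0 of 15206 genes. As a description, the block differences in nonpregnant cows alone were -6.65, -0.58 and -0.48 for ENSBTAG00000037644, ENSBTAG00000043250 and ENSBTAG00000054661. In pregnant cows alone they were -8.63, -1.67 and -1.65. The cause was not tested.

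Without 1 cow, outcome values of ENSBTAG00000037644, ENSBTAG00000043250 and ENSBTAG00000054661 ran from -0.62 to 2.25, -0.65 to -0.37 and -0.49 to -0.23. The value of ENSBTAG00000054661 was -0.23 without block 2 nonpregnant replicate 6. Progesterone slopes ran from -2.78 to -0.62, -0.42 to -0.28 and -0.23 to -0.13. Block differences ran from -8.17 to -6.02, -1.34 to -1.05 and -1.32 to -1.09. The 78 genes called for progesterone were 285 in DESeq2, 0 in limma voom, 181 with no filter, 26 with linear and 124 with ranked progesterone, 211 with the share of abundant genes and 0 in each block alone. The 63 genes called for block were 225 in DESeq2, 834 in limma voom, 248 in pregnant cows alone, 30 with no pregnancy term, 6 with detected genes and 0 in nonpregnant cows alone. The 0 called for outcome were 5 with no filter. With at most 32 reads per library in block 2, counting error limits comparisons of ENSBTAG00000037644 among those cows.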
